A study of Homo sapiens with 6 samples.

Results

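Genes whose proteins build ribosomes in the nucleolus were followed in PC9 cells, a line from a human lung adenocarcinoma that depends on mutant EGFR, across 6 single-cell libraries. The set is a list of 33 symbols of nucleolar processing and assembly factors and RNA polymerase I subunits, chosen by name and role and set beside MYC. This set and the further lists were chosen with earlier results of these data known. Shares of all genes set beside them are therefore a description only. Of these, 31 were among the 26195 gene symbols of the 6 libraries; DKC1 and BOP1 were not analysed here. Levels are CPM, the UMIs of a gene summed over all kept cells of a library and scaled to a fixed total of UMIs. Messenger RNA was measured by Drop-seq, which tags each captured transcript with a cell barcode and a unique molecular identifier (UMI), so that a UMI stands for 1 captured molecule.

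Each condition was 1 library. In 4 libraries the cells had been given the EGFR kinase inhibitor erlotinib (2 µM, 1 day) together with a manipulation of the KDM5 histone demethylases. Those manipulations were KDM5A cDNA, KDM5A shRNA, KDM5A and KDM5B shRNA, and the inhibitor CPI-455 (6.25 µM, 4 days). The shRNAs were carried by pLVTHM lentiviruses with GFP and the cDNA by a pLenti virus with a CMV promoter. Erlotinib began 4 days after transduction with KDM5A shRNA, 5 days with both shRNAs and 6 days with the cDNA. The libraries without drug were cells with a scrambled shRNA virus and cells left untreated. Transduced cells were moved to 10% serum and the others were grown in 5%. Whether transduced cells were selected is not given in the sources used here. The labels place the start of erlotinib in the CPI-455 library both a day after seeding and for 1 day of treatment, so its timing is uncertain. No library had erlotinib without a KDM5 manipulation, so in the 4-against-2 comparison both agents cannot be told apart.

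Ribosome assembly starts in the nucleolus, where RNA polymerase I makes the precursor of ribosomal RNA. Small nucleolar RNPs (snoRNPs) of the box C/D kind guide its 2'-O-methylation and those of the box H/ACA kind guide pseudouridylation, while many processing factors fold and trim the precursor into both subunits. These genes are known targets of the transcription factor MYC, which binds the E-box CACGTG, and their activity is high in growing cells.

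E-boxes were looked for in RefSeq promoter windows (GRCh38.p14), which run from 250 bases before a transcript start to 50 bases after it. The motif CACGTG reads the same on both strands. Of the 31 genes, 27 had a window, and in the part before the start the motif stood in 5 of them, or 18.5%. The same search found it in 11.7% of 7050 genes tested in the erlotinib comparison that had a window, and in 7.73% of all 27305 genes of the table. Over the whole 300 bases, a search added after the positions of the matches had been seen, 14 of 27 genes, or 51.9%, held the motif, beside 13.1% of tested genes and 8.77% of all genes. Of the 15 matches, 12 lay within 40 bases of the start. The stretches around 8 of the 15 matches are shown because they let a reader compare genes that fell with erlotinib (the first 6) with genes that did not pass the test (UTP20 and PES1). Each is written 5′ to 3′ on the strand of the gene, with the E-box in capitals.
DDX21: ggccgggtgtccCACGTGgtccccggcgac
LYAR: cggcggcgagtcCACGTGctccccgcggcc
RRP9: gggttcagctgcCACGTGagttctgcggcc
FBL: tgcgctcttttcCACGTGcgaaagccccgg
WDR43: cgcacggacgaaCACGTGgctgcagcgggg
MRTO4: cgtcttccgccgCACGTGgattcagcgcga
UTP20: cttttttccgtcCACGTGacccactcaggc
PES1: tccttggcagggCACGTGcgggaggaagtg
The stretch of DDX21 is chr10:68956604-68956633 (plus strand), that of WDR43 chr2:28894658-28894687 (plus), that of MRTO4 chr1:19251807-19251836 (plus) and that of UTP20 chr12:101280083-101280112 (plus). On the minus strand, LYAR lies at chr4:4290068-4290097, RRP9 at chr3:51941892-51941921, FBL at chr19:39846356-39846385 and PES1 at chr22:30591880-30591909. The E-box began upstream of the gene, 31 bases before the start of DDX21, 64 before LYAR, 5 before RRP9 and 10 before UTP20. In the other 4 it lay in the first exon, beginning at transcript base 7 of FBL, 4 of WDR43, 15 of MRTO4 and 14 of PES1. Among genes with a window, 10 of 16 that fell with erlotinib and 4 of 11 that did not pass held the motif. A match describes the letters of the window and is no evidence of binding in these cells.

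Each library kept between 131 and 1166 cells (500 UMIs or more, mitochondrial share up to 20%), with 590091 to 3956647 UMIs. A count of 0 allows up to 0.758 to 5.08 CPM, taking 3 counts as the limit. Of 8 epithelial and lung adenocarcinoma markers, all 8 were detected in sum at 8226 to 12199 CPM, while the 2 blood markers in the tables reached at most 2.76 and the 5 fibroblast and endothelial markers 5.41 to 20.7. Only 1 cell barcode was shared between libraries. KDM5A stood at 56.4 and 41.3 CPM in the KDM5A shRNA library and the library labelled KDM5A and KDM5B shRNA. It was at 81.9 in the scrambled, 121 in the untreated and 164 in the KDM5A cDNA library. KDM5B was not below the controls in the library labelled KDM5A and KDM5B shRNA (138, against 46.4 scrambled and 60.4 untreated). It was also above them with CPI-455 (102), KDM5A shRNA (151) and KDM5A cDNA (94.9). The drug-free controls thus did not bear out that label for KDM5B, nor could they refute it. A knockdown could not be judged without a library of erlotinib alone, and the library is named by its label. Mitochondrial UMIs made up 7.04% to 9.18% of the erlotinib libraries and 3.98% to 5.03% of the others, and summed S phase genes stood at 487 to 611 against 4101 to 5283 CPM. Both move with erlotinib, and their part in the results below was not tested beyond the values given beside them.

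With erlotinib most of the nucleolar genes fell together, while MYC did not pass the test. The test was edgeR's quasi-likelihood test of the 4 erlotinib libraries against the 2 drug-free ones, fitted over 10445 genes with Benjamini-Hochberg adjustment. At an adjusted p under 0.05, 19 of the 31 genes were lower and 0 higher, where 13.5% of all tested genes were lower and 10.0% higher. No gene of the set was higher at an unadjusted p under 0.05, or by DESeq2 or limma-voom, since every fold was below 0. The median log2 fold of the 31 genes was -1.26, with a range from -2.62 for LYAR to -0.09 for NPM1, while the median of all tested genes was 0.01. In 28 of the 31 genes all 4 erlotinib libraries lay below both drug-free libraries, a separation that 26.7% of all tested genes showed. NPM1, UTP20 and AATF were the 3 whose libraries overlapped. Without the scrambled library, which left only untreated cells as the base, the median was weaker at -0.95, where that of all tested genes was 0.02. When every cell was thinned to 1000 UMIs, 11 of the 19 genes still tested were lower, beside 539 of all 4447 genes tested. Of the genes lower in the main fit, 5 were not tested there. Leaving mitochondrial genes out of the totals gave 19 lower and a median of -1.27.

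**Figure D1:**
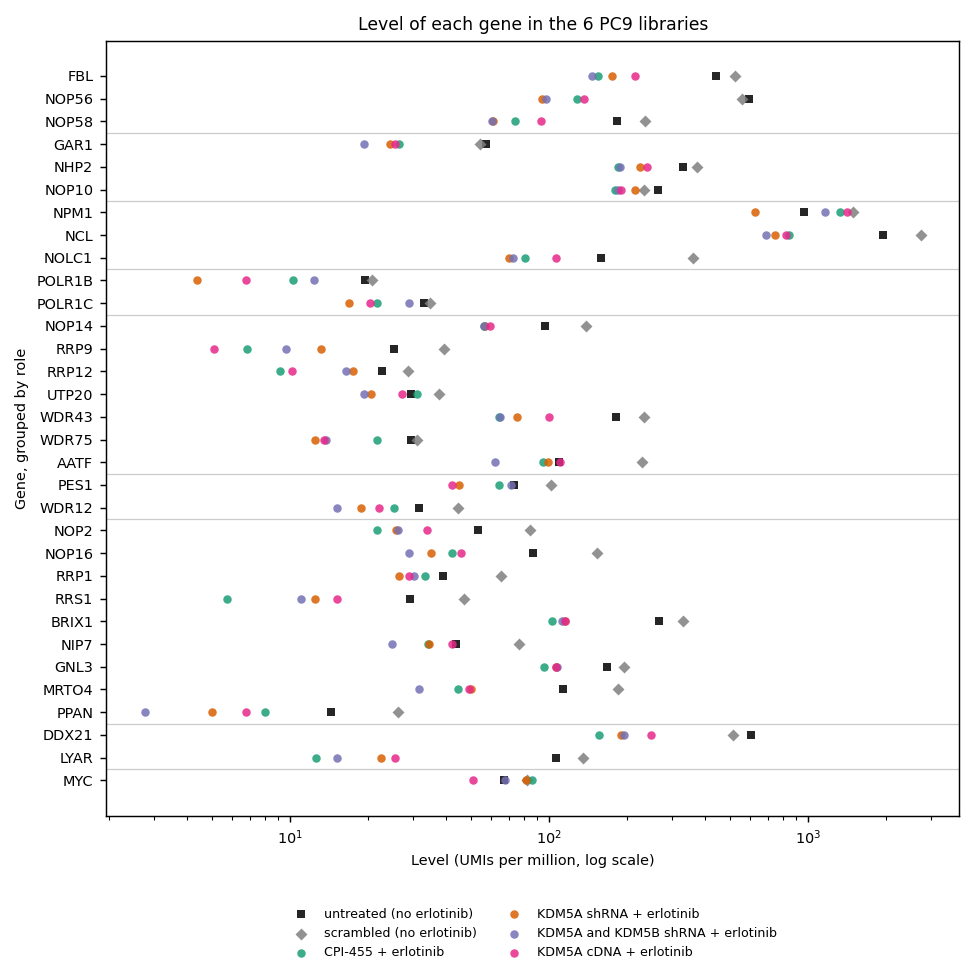
Level of the 31 nucleolar genes and of MYC (rows, grouped by role, with a grey line between roles) in CPM on a log axis. Each point is 1 library; black squares and grey diamonds are the drug-free libraries and coloured circles the 4 erlotinib libraries, which lie to the left in 28 of the 31 genes but not for NPM1 or MYC.

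In the box C/D snoRNP, which methylates ribosomal RNA, all 3 genes listed fell. FBL, the methyltransferase fibrillarin, stood at 156 CPM with CPI-455, 176 with KDM5A shRNA, 147 in the library labelled KDM5A and KDM5B shRNA and 215 for KDM5A cDNA, against 525 in the scrambled and 443 in the untreated library. The values below are in this same order of libraries, with the 4 erlotinib libraries first. The log2 fold of FBL was -1.44 (SE 0.22, edgeR adjusted p = 0.00134), and the highest erlotinib library was still below both controls. NOP56, a core scaffold protein of the particle, had levels of 128, 94.0, 97.8 and 137 with erlotinib and 560.1 and 594 without. This was the second steepest fold of the set, -2.30 (SE 0.21, edgeR adjusted p = 0.000118). NOP58, its partner in the scaffold, was measured at 74.4, 60.8, 60.6 and 93.2 against 235 and 184 (log2 fold -1.51, SE 0.23, edgeR adjusted p = 0.0016). For each of the 3 genes the KDM5A cDNA library was the highest of the erlotinib libraries.

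The box H/ACA particle, which converts uridine to pseudouridine, had smaller folds, with a median of -0.71 over 3 genes, of which 2 fell. GAR1, one of its core proteins, stood at 26.3, 24.4, 19.3 and 25.4 CPM with erlotinib and at 54.1 and 57.4 without (log2 fold -1.18, SE 0.24, edgeR adjusted p = 0.00757). With transduced libraries only its fold was -1.22 and did not pass. NHP2, the core protein related to ribosomal protein L7Ae, gave 185, 224, 189 and 239 against 373 and 329.8. Its fold of -0.71 (SE 0.20) passed at an edgeR adjusted p of 0.0306, the weakest call of the 19. NHP2 did not pass in 5 of 16 alternatives, among them those without the CPI-455 library, without the library labelled KDM5A and KDM5B shRNA and without the scrambled library. NOP10, the smallest of the core proteins, read 179.7, 215, 185 and 189.8 against 233 and 263, and did not pass (log2 fold -0.32, SE 0.19, edgeR adjusted p = 0.237). All 4 erlotinib libraries were below both controls for NOP10 too, but the highest of them, KDM5A shRNA, lay close to the scrambled library.

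Among nucleolar chaperones and scaffolds, NCL and NOLC1 fell and NPM1 did not pass. NCL, nucleolin, an RNA-binding protein of the nucleolus and the gene with the highest mean level of the set, was found at 845, 749.8, 693 and 822 CPM with erlotinib and at 2730 and 1959 without. Its log2 fold was -1.56 (SE 0.20, edgeR adjusted p = 0.000632), and the erlotinib libraries differed among themselves by only 1.22-fold. NOLC1, a phosphoprotein that binds snoRNPs, stood at 81.3, 70.2, 73.0 and 107 against 360.0 and 159. Its fold of -1.63 (SE 0.32, edgeR adjusted p = 0.00657) leaned on the scrambled library, and without that library it was -0.90 and did not pass. NPM1, nucleophosmin, a histone and assembly chaperone, read 1337, 626, 1168 and 1417 against 1502 and 964. The KDM5A shRNA library lay below the untreated library and the other 3 erlotinib libraries between the untreated and the scrambled one (log2 fold -0.09, SE 0.32, edgeR adjusted p = 0.863). NPM1 has many processed pseudogenes, and 43 symbols of such copies held 16.7% to 37.0% of the combined UMIs, with the share largest with KDM5A cDNA and CPI-455. With the copies added its fold was 0.09, so its sign depends on how reads were assigned between gene and copies. Its sign also turned without the KDM5A shRNA library (0.11) and without the scrambled library (0.29).

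**Figure D2:**
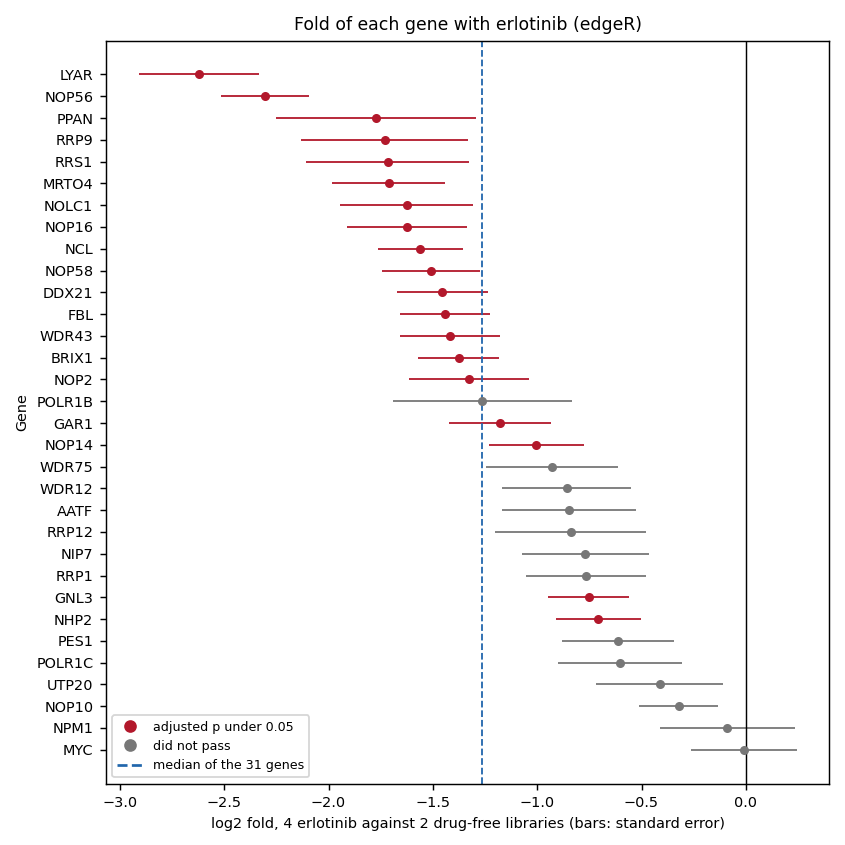
The log2 fold of the 4 erlotinib libraries against the 2 drug-free libraries for the 31 genes, ordered by fold, and for MYC at the foot; bars are standard errors. Red marks the 19 genes with an edgeR adjusted p under 0.05, grey the others, and the dashed line the median of -1.26.

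Both RNA polymerase I subunits of the list, POLR1B, the second largest subunit, and POLR1C, shared with RNA polymerase III, did not pass. POLR1B had a log2 fold of -1.26 with a wide SE of 0.43 (edgeR adjusted p = 0.0556), from 4 to 9 UMIs in each erlotinib library. POLR1C had a fold of -0.60 (SE 0.30, edgeR adjusted p = 0.16). For both, all 4 erlotinib libraries were below both controls. POLR1B passed in limma-voom and with no filter on low counts.

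Of 7 genes of the small subunit processome, the large particle that processes the precursor of the small subunit, 3 fell. WDR43, also called UTP5, stood at 64.1, 75.2, 64.8 and 99.98 CPM with erlotinib and 233 and 183 without (log2 fold -1.42, SE 0.24, edgeR adjusted p = 0.00256). The KDM5A cDNA library was again the highest with erlotinib. NOP14 was nearly level across the erlotinib libraries, at 56.1, 57.0, 56.5 and 59.3, against 139.8 and 96.5. Its fold was -1.003 (SE 0.23, edgeR adjusted p = 0.0113), and -0.70 without the scrambled library, where it did not pass. RRP9, the protein that joins the U3 snoRNA, was low throughout, at 6.87, 13.2, 9.64 and 5.08 against 39.4 and 25.3 (log2 fold -1.73, SE 0.40, edgeR adjusted p = 0.0125). The lowest of these values rests on 3 UMIs, and RRP9 did not pass without the scrambled library. The other 4 had folds from -0.93 for WDR75 to -0.41 for UTP20 and did not pass, though WDR75 did in 3 of 16 alternatives: without the CPI-455 library, in limma-voom and with all barcodes. AATF, a nucleolar factor also known for its part in the stress response, was among them. The scrambled library had AATF at 229 and the untreated library at 109.9, close to the 110.2 of the KDM5A cDNA library, and AATF passed without the untreated library (-1.34), with transduced libraries only and with no filter on low counts.

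Of the 11 large subunit factors, 7 fell, all outside the PeBoW complex, in which PES1 (-0.61) and WDR12 (-0.86) did not pass. BRIX1, an assembly factor for the large subunit's RNA, was the most abundant of them, at 103, 116, 113 and 115 CPM with erlotinib and 329.9 and 267 without. Its erlotinib values differed by 1.13-fold, and its log2 fold was -1.38 (SE 0.19, edgeR adjusted p = 0.00098). GNL3, nucleostemin, a GTP-binding protein of growing cells, read 96.1, 107, 107 and 107 against 195 and 168 (log2 fold -0.75, SE 0.19, edgeR adjusted p = 0.0192). Its call was lost without the scrambled library and without the library labelled KDM5A and KDM5B shRNA. MRTO4, a relative of the ribosomal stalk protein, stood at 44.6, 50.1, 31.7 and 49.1 against 185 and 113 (log2 fold -1.71, SE 0.27, edgeR adjusted p = 0.00186). NOP16 gave 42.3, 35.1, 28.9 and 45.8 against 154 and 86.7 (log2 fold -1.62, SE 0.29, edgeR adjusted p = 0.00335). For both, the scrambled library was well above the untreated one, and the library labelled KDM5A and KDM5B shRNA was the lowest.

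The remaining large subunit factors had fewer UMIs. NOP2, an rRNA cytosine methyltransferase, was found at 21.7, 25.7, 26.2 and 33.9 CPM against 84.98 and 53.3 (log2 fold -1.33, SE 0.29, edgeR adjusted p = 0.0095). RRS1, which brings 5S RNA into the particle, stood at 5.72, 12.5, 11.02 and 15.3 against 47.1 and 29.1 (log2 fold -1.72, SE 0.39, edgeR adjusted p = 0.0117). PPAN, the Peter Pan homologue, was the scarcest gene of the set, at 8.01, 5.01, 2.76 and 6.78 against 26.3 and 14.4 (log2 fold -1.77, SE 0.48, edgeR adjusted p = 0.0237). Its erlotinib values come from 2 to 8 UMIs each, so their order carries no weight. NOP2, RRS1 and PPAN did not pass without the scrambled library, nor PPAN without the library labelled KDM5A and KDM5B shRNA or in limma-voom. RRP1 and NIP7 had folds of -0.77 each and did not pass, although all 4 erlotinib libraries were below both controls. Without the untreated library both passed, and RRP1 also with transduced libraries only.

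DDX21 and LYAR both fell. DDX21, a DEAD-box RNA helicase that couples RNA polymerase I transcription to rRNA processing, read 157, 189.8, 196 and 249 CPM with erlotinib and 514 and 602 without (log2 fold -1.46, SE 0.22, edgeR adjusted p = 0.00135). LYAR, a zinc finger protein of the nucleolus linked to cell growth, stood at 12.6, 22.6, 15.2 and 25.4 against 135 and 106. Its fold of -2.62 (SE 0.29, edgeR adjusted p = 0.000305) was the steepest of the 31. Together with FBL, NOP56, NOP58, NCL, WDR43, BRIX1, MRTO4 and NOP16, these make 10 genes that passed in every one of 16 alternatives that tested them.

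The wider assembly machinery, taken from lists of further genes, went the same way as the 31. Of 12 other RNA polymerase I genes tested, 6 were lower and 0 higher, with a median log2 fold of -0.97. The steepest were CD3EAP, a polymerase I subunit (-2.19, edgeR adjusted p = 0.000305), TAF1A, of the promoter factor SL1 (-1.52, adjusted p = 0.0235), and TWISTNB, another subunit (-1.28, adjusted p = 0.00359). Of 41 further genes of the small subunit pathway, 20 were lower and 0 higher (median -0.82), led by NAT10, an rRNA acetyltransferase (-1.67, edgeR adjusted p = 0.00251), PNO1 (-1.56, adjusted p = 0.00435) and IMP4 (-1.52, adjusted p = 0.00742). Of 48 large subunit assembly and export genes, 22 were lower and 0 higher (median -0.90). RPF2, a partner of RRS1, fell by 1.71 on the log2 scale (edgeR adjusted p = 0.000498), PA2G4 by 1.58 (adjusted p = 0.000792) and NOC3L by 1.55 (adjusted p = 0.00574). Of 24 genes for snoRNP assembly and rRNA trimming, 12 were lower and 0 higher (median -0.77). TCOF1, treacle, a cofactor of polymerase I, had the steepest fold of these at -2.71 (edgeR adjusted p = 0.000201), from 249 to 301 CPM without the drug to 28.9 to 57.6 with it. MPHOSPH6 (-2.28, adjusted p = 0.000792) and EXOSC8 (-2.18, adjusted p = 0.000475), both of the RNA exosome, followed. The share called lower in each of these 4 lists was above the 13.5% of all tested genes; no list was tested as a set.

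Cytoplasmic ribosomal protein genes, which encode the finished ribosome's proteins, were taken by symbol afterwards, with a pattern that also admits paralogues ending in L. Among the 71 tested, 2 were lower and 2 higher, beside 13.5% and 10.0% of all tested genes. Their median log2 fold was 0.06, with a range from -1.70 to 1.14. Of the 71, 8 had all 4 erlotinib libraries below both controls, beside 26.7% of all tested genes. Processed pseudogenes of any gene held 1.25% to 3.25% of UMIs in the erlotinib libraries and 0.956% to 1.31% in the others. The copies of these 71 genes were not added to them. Cell cycle genes fell further than the nucleolar genes: all 42 S phase genes tested were lower (median -4.04) and 44 of 50 G2/M genes (median -2.87).

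**Figure D3:**
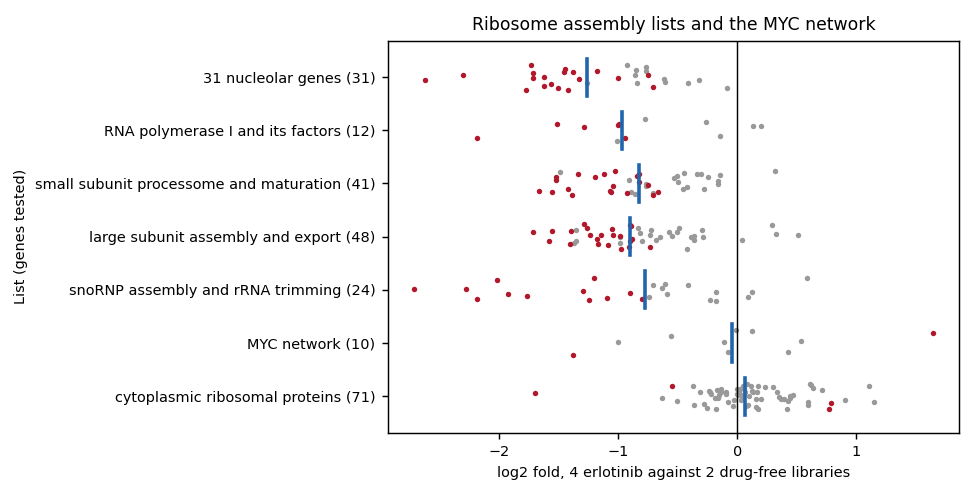
The log2 fold of the 4 erlotinib libraries against the 2 drug-free ones for each gene of 7 lists (1 point a gene, red where the edgeR adjusted p was under 0.05, blue bar at the median). The 5 assembly lists have medians between -1.26 and -0.77, and the MYC network and the cytoplasmic ribosomal protein genes have medians near 0.

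MYC itself stood at 85.8, 82.1, 67.5 and 50.8 CPM with erlotinib, in the same order, and at 82.7 and 67.5 without. The erlotinib libraries spanned the range of both controls, with KDM5A cDNA below them. The log2 fold was -0.01 (SE 0.25, edgeR adjusted p = 0.983), and under other settings it took both signs, from -0.28 with transduced libraries only to 0.16 without the scrambled library. This SE leaves room for a change of MYC of modest size in either direction. Of 10 tested genes of the MYC network, the partners and antagonists of MYC, 1 was lower and 1 higher, which is near the 13.5% and 10.0% of all tested genes. MXD3, a repressor that competes for the partner MAX, fell from 13.9 and 24.3 to between 6.26 and 8.27 (log2 fold -1.38, SE 0.39, edgeR adjusted p = 0.0287). MXI1, another repressor of this family, rose from 24.0 and 26.3 to between 67.8 and 82.7 (log2 fold 1.65, SE 0.24, edgeR adjusted p = 0.00121).

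Pairs of libraries were then compared to see the nucleolar genes under each manipulation. With 1 library a condition there is no test; ratios carry exact 95% intervals that cover counting error only. Summed over the 31 genes, the level was 3976 CPM with CPI-455, 3245 with KDM5A shRNA, 3591 in the library labelled KDM5A and KDM5B shRNA and 4381 for KDM5A cDNA, against 9326 scrambled and 7131 untreated. NPM1 made up much of the spread among the erlotinib libraries, and without it the sums were 2639, 2620, 2422 and 2964 against 7824 and 6167. The CPI-455 to untreated ratio of that sum was 0.428 (interval 0.410 to 0.447). Against the scrambled library the ratio was 0.335 (0.323 to 0.347) with KDM5A shRNA, 0.310 (0.294 to 0.326) in the library labelled KDM5A and KDM5B shRNA. For KDM5A cDNA it was 0.379 (0.360 to 0.399). All 4 ratios were far below 1, and the 3 transduced ones share the scrambled library.

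Gene by gene, 22 of the 31 had a mean of at least 30 CPM and were counted where they differed by 2-fold or more, beside all 5372 genes at that level. From untreated to CPI-455 with erlotinib, 12 of 22 were lower and 0 higher (median log2 ratio -1.06), where 12.5% of all genes were lower and 11.4% higher. From scrambled to KDM5A shRNA with erlotinib, 19 were lower and 0 higher (median -1.47), beside 13.7% and 12.5%. The counts were 17 and 0 in the library labelled KDM5A and KDM5B shRNA (median -1.63), beside 15.8% and 14.6%. With KDM5A cDNA they were also 17 and 0 (median -1.23), beside 13.3% and 12.8%. Most of the 22 genes counted were therefore 2-fold or more lower in each drug library against its drug-free base, though only 12 with CPI-455. These shares were larger than those of all genes at that level. No library held an empty cDNA virus as a control for KDM5A cDNA.

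The scrambled library held more nucleolar RNA than the untreated one. Their summed level differed by a ratio of 1.31 (interval 1.28 to 1.34), or 1.27 without NPM1, and 27 of the 31 genes were higher in the scrambled library. Of the 22 genes counted gene by gene, 4 were lower at any size in the scrambled library, beside 2814 of all 5372 genes. At 2-fold, 2 of 22 were higher and 0 lower (median log2 ratio 0.41), beside 3.28% higher and 4.99% lower of all genes. Those 2 were NOLC1 at 2.26-fold (interval 2.00 to 2.55) and AATF at 2.09-fold (1.79 to 2.42). NOP56 was at 0.942 (0.866 to 1.02), an interval that includes 1. The ratios against the scrambled library above thus start from a higher base than the ratio against untreated cells. Virus, serum and library differ between both controls and cannot be told apart.

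The erlotinib libraries were compared with KDM5A shRNA as the base, in 3 of their pairs. Between the library labelled KDM5A and KDM5B shRNA and KDM5A shRNA, 0 of 22 were 2-fold lower and 0 higher (median log2 ratio -0.07), beside 0.931% and 3.83% of all genes. KDM5A cDNA against KDM5A shRNA gave 0 lower and 1 higher (median 0.18), beside 4.11% and 7.58%. CPI-455 against KDM5A shRNA gave 0 lower and 1 higher (median -0.04), beside 4.19% and 7.02%. NPM1 was the gene past 2-fold in both, at 2.26-fold with KDM5A cDNA (interval 2.06 to 2.48) and 2.14-fold with CPI-455 (1.96 to 2.33), and it was 1.87-fold higher in the library labelled KDM5A and KDM5B shRNA (1.70 to 2.05). These 3 ratios share the KDM5A shRNA library, which had the lowest share of NPM1 pseudogene copies. Over the 22 genes the highest erlotinib library exceeded the lowest by 1.06-fold for NOP14 to 2.26-fold for NPM1, with a median of 1.53. LYAR followed NPM1 at 2.02-fold, from 12.6 CPM (11 UMIs) with CPI-455 to 25.4 CPM (15 UMIs) with KDM5A cDNA, a pair that was not among the 3. KDM5A cDNA was the highest of the 4 for 15 of the 31 genes and the lowest for 2. That count was not made over all genes, and this library had the fewest UMIs (590091). Against KDM5A shRNA, 4 of the 22 were lower at any size with KDM5A cDNA, beside 2906 of all 5372 genes. The KDM5A cDNA sum without NPM1 was 1.13 times that of KDM5A shRNA (interval 1.07 to 1.197), with NOP56 at 1.46 (1.10 to 1.93) and NOP58 at 1.53 (1.08 to 2.16). Without NPM1, CPI-455 and KDM5A shRNA had a ratio of 1.01 (0.957 to 1.06) and the library labelled KDM5A and KDM5B shRNA one of 0.925 (0.874 to 0.978).

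MYC was set beside the nucleolar sum in the same pairs. The MYC ratio was 1.27 (0.971 to 1.65) from untreated to CPI-455 with erlotinib and 0.993 (0.763 to 1.29) from scrambled to KDM5A shRNA. In the library labelled KDM5A and KDM5B shRNA it was 0.817 (0.570 to 1.16), and with KDM5A cDNA 0.615 (0.396 to 0.929). Only the last of these 4 intervals excludes 1. The KDM5A cDNA library thus had the lowest MYC level, from 30 UMIs, and the highest nucleolar sum of the erlotinib libraries. MYC against KDM5A shRNA was 0.620 (0.402 to 0.927) with KDM5A cDNA. In cells thinned to 1000 UMIs, where MYC had few UMIs left, the log2 ratio of KDM5A cDNA to scrambled was -1.42 for MYC and -0.93 for the sum of the 31 genes, so there MYC was the lower of both.

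**Figure D4:**
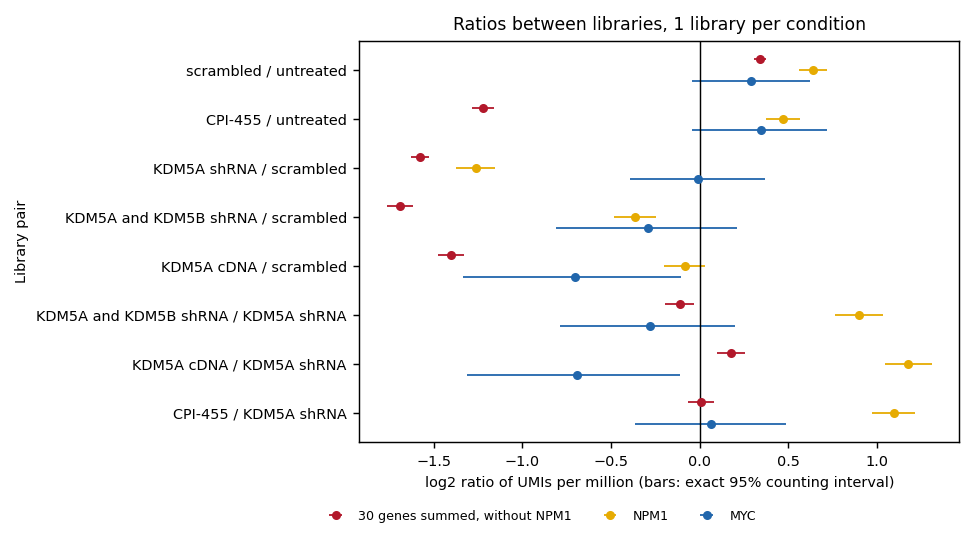
The log2 ratio between 2 libraries for the sum of 30 nucleolar genes without NPM1 (red), for NPM1 (yellow) and for MYC (blue), with exact 95% counting intervals; rows are library pairs, and the first 5 have a drug-free library as the base. The red points lie far below 0 in the 4 pairs of an erlotinib library with a drug-free one. The points of NPM1 and MYC lie to the right of them in each of these pairs.

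The lower level was seen across cells rather than in a few. Each cell was thinned to 1000 UMIs, leaving between 105 and 822 deeper cells a library, and the UMIs of the 31 genes were summed per cell. The mean was 3.98 with CPI-455, 3.24 with KDM5A shRNA, 3.89 in the library labelled KDM5A and KDM5B shRNA and, for KDM5A cDNA, 4.63, against 8.83 scrambled and 7.18 untreated. The medians were 4, 3, 4 and 4 against 8 and 7, so the whole distribution was shifted. Cells with none of these UMIs made up 0.806% to 3.92% of the erlotinib libraries. They were 0 of 222 scrambled cells, whose exact 95% interval reaches 1.65%, and 0.122% of untreated cells. The squared coefficient of variation between cells beyond counting noise was 0.0017 to 0.088 in the 6 libraries, so most of the spread between cells was of the size that counting gives.

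**Figure D5:**
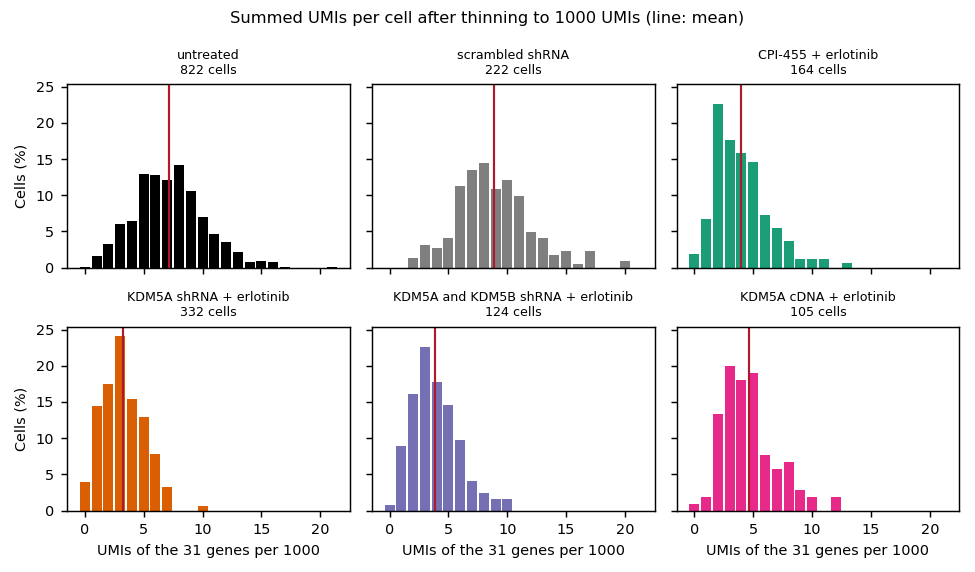
Share of cells (%) by the number of UMIs of the 31 genes after each cell was thinned to 1000 UMIs, in the 6 libraries; the red line is the mean. Scrambled and untreated cells centre on 8.83 and 7.18 UMIs, the erlotinib libraries on 3.24 to 4.63.

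Cycling state was set beside these values, since the cycle genes were low with erlotinib. Cells thinned to 1000 UMIs with no UMI of the S phase or G2/M lists had a mean of 3.50 to 4.45 nucleolar UMIs in the erlotinib libraries, over 18 to 74 cells each. In untreated cells without such a UMI it was 5.38 (16 cells), and 1 scrambled cell held 3. At 500 UMIs, where 87 untreated cells lacked a cycle UMI, the means were 1.69 to 2.05 with erlotinib against 2.78 untreated and 5.67 in 3 scrambled cells. Untreated cells with an S phase UMI had 7.31 nucleolar UMIs and those without 6.30, and across these 822 cells the correlation with summed S phase UMIs was 0.21 (Pearson, a description only). With summed G2/M UMIs it was -0.008 in the same cells. The S phase correlation took both signs in the other libraries. It was -0.17 with CPI-455, 0.04 with KDM5A shRNA, -0.03 in the library labelled KDM5A and KDM5B shRNA, 0.28 with KDM5A cDNA and 0.14 scrambled. Among cells with no cycle UMI the erlotinib means lay below the untreated mean, by less than over all cells. The 1 scrambled cell at 1000 UMIs lay below the erlotinib means. How many cells lack a cycle UMI depends on the depth kept, and the part of cycling in the lower level was not tested.

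Within a library, cells with a MYC UMI did not hold more nucleolar UMIs in any steady way. At 1000 UMIs the mean in cells with a MYC UMI was 0.902 times that in cells without with CPI-455, 0.931 with KDM5A shRNA, 0.929 scrambled and 0.930 untreated. In the library labelled KDM5A and KDM5B shRNA it was 1.03. The KDM5A cDNA library had 1.38, where only 3 cells had a MYC UMI. At 2000 UMIs all 6 ratios were above 1, from 1.01 to 1.10. With so few MYC UMIs per cell the direction could not be resolved at this depth.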

How the data were processed

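Drop-seq UMI tables of 6 PC9 libraries were used as the authors deposited them: raw counts per gene symbol and cell barcode. The submitters' processing notes name STAR, FastQC and GRCh37.p13 (hg19); versions, the counting tool and strand use are not given in the sources used here. Barcodes with at least 500 UMIs and at most 20% mitochondrial UMIs were kept, no doublet caller was run, and UMIs were summed per library. Erlotinib was tested with edgeR 4.0.16 (TMM, filterByExpr, robust quasi-likelihood, Benjamini-Hochberg adjusted p under 0.05) on 4 libraries against 2; the p-values measure the spread among libraries that also differ in KDM5 manipulation. The SE of an edgeR fold was derived from its test, as the absolute log2 fold over the square root of the F statistic. DESeq2 1.42.0 and limma-voom (limma 3.58.1) were alternatives. Library pairs were compared by exact conditional 95% intervals, which cover counting error only. The model and the intervals were tested on simulated data. Promoter windows are RefSeq's (GRCh38.p14), matched by symbol.

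The 33 genes and all lists were chosen with earlier results of these data known. Values in every library are given for the 12 genes with the highest mean, every gene that passed, and MYC; in other lists, up to 3 passing genes a direction with the largest fold are named. Further names were picked after their values were seen.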

Additional observations from a re-analysis of the deposited data

Results flagged for a closer look

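In 3 genes the CPI-455 library moved against its untreated control in the opposite direction to all 3 transduced erlotinib libraries against the scrambled control. The log2 ratio with CPI-455 was 0.47 for NPM1, 0.35 for MYC and 0.076 for UTP20, and the transduced ratios were all below 0. These differences were not tested, since each condition had 1 library, and the controls of both ratios differ. For NPM1 the counting interval of the CPI-455 ratio was 0.38 to 0.57. For MYC and UTP20 the counting interval of the CPI-455 ratio includes 0. Some transduced intervals include 0 as well. These were MYC with KDM5A shRNA (-0.39 to 0.37) and in the library labelled KDM5A and KDM5B shRNA (-0.81 to 0.21). With KDM5A cDNA they were NPM1 (-0.20 to 0.034) and UTP20 (-1.40 to 0.36). How many of all genes met the same rule was not counted.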

How the results depend on the processing

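Leaving out each library in turn gave 11 to 22 genes lower and a median log2 fold of -1.37 to -0.95; both low ends came without the scrambled library, and the cause was not tested. The count was 11 with cells thinned to 1000 UMIs, where 19 of the genes were tested, beside 539 of all 4447 genes tested. It was 19 to 21 under the other alternatives that kept all 6 libraries. As shares of all tested genes, these ran from 1768 of 25807 with no filter on low counts to 1520 of 10445 in limma-voom. MYC took both signs, with log2 folds of 0.021 in limma-voom, 0.031 in cells with at least 1000 UMIs, 0.036 thinned, and -0.21 to 0.16 leaving out a library. NPM1 was at 0.10 thinned, 0.087 with pseudogene copies added, and -0.43 to 0.29 leaving out a library.

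Log2 ratios of the summed level moved beyond counting error in several pairs, and the cause was not tested. Thinned to 1000 UMIs they were 0.30 for scrambled to untreated, -1.45, -1.18 and -0.93 for KDM5A shRNA, KDM5A and KDM5B shRNA and KDM5A cDNA to scrambled, and 0.26 and 0.51 for the last 2 libraries to KDM5A shRNA. MYC with KDM5A cDNA was then at -1.42 to scrambled and -1.61 to KDM5A shRNA. With copies added the sums gave -0.68 for CPI-455 to untreated, -1.30 and -0.90 for both shRNAs and cDNA to scrambled, and 0.23, 0.63 and 0.45 for both shRNAs, cDNA and CPI-455 to KDM5A shRNA. TMM sizes gave 0.47 for scrambled to untreated and 0.22 for CPI-455 to KDM5A shRNA, and leaving out mitochondrial genes -0.76 for CPI-455 to untreated. Without NPM1, an alternative chosen after seeing the data, the 8 pairs in the order of the plot of ratios stood at 0.34, -1.22, -1.58, -1.69, -1.40, -0.11, 0.18 and 0.011. Without NPM1 and NCL they stood at 0.28, -1.23, -1.45, -1.56, -1.25, -0.11, 0.20 and -0.059. The sign thus turned for both shRNAs to KDM5A shRNA and, in the last case, for CPI-455 to KDM5A shRNA. Scrambled cells without a cycle UMI had a mean of 3, from 1 cell. No paired analysis was possible because each condition had 1 library.

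Depth limits the scarce genes: 9 of the 31 had a mean under 30 CPM. No library had erlotinib alone, so neither agent's own effect can be read from these values, and the 4 erlotinib libraries are not replicates of a condition.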
